A study of Drosophila melanogaster with 2 samples.

Results

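The regions described here were 1103 weak entries of the pooled peak list whose summits lay inside protein-coding exons. They were taken from 30000 entries that the authors called on 2 pooled libraries of a chromatin immunoprecipitation experiment with Bicoid. An entry was kept when it overlapped no interval of the authors' IDR set, when its summit lay in annotated coding sequence, and when that summit was over 500 bp from every annotated transcription start site (TSS). IDR, the irreproducible discovery rate, is a procedure that compares how peaks rank in the replicates, and the authors' IDR set held 6054 entries. Of the pooled entries, 22918 (76.4%) overlapped no IDR interval, and the coding-exon entries were 4.81% of these. The best pooled rank among these 22918 was 6055, so all of them lay below a limit in pooled signal. Their absence from the IDR set is thus no measure of how alike the replicates ranked them. The members were therefore chosen by measured values, namely the pooled calls and the IDR result, so their signal and rank are given as a description with no test.

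Both libraries came from whole Drosophila melanogaster embryos, 0 to 24 hours old and of mixed sex, of strain 1T-GFP. This transgenic line stably carried bcd with a green fluorescent protein (eGFP) tag at its C-terminus, and the precipitation used an antibody to that tag. There was 1 group and no second condition, and the 2 libraries were biological replicates 1 and 3, each from its own biosample. The embryos were collected over the whole of embryogenesis and all tissues were mixed, and a control experiment named in the labels was not analysed here.

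Bicoid is a homeodomain transcription factor whose mRNA is deposited at the anterior pole of the egg. The protein forms a gradient in the early embryo and activates head and gap genes, mostly through enhancers and promoters that hold the word TAATCC or close variants. Most enhancers known in Drosophila lie in introns or between genes, although some overlap coding exons. A relaxed list is meant to include background for the IDR procedure, so its lower ranks can hold both weak binding and noise.

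The sequences below show the coding DNA at the summits that the results turn on. Each is the part of the 201 bp window around the summit that lies in the same coding block, on the strand of the gene, from RefSeq's copy of the dm6 genome. The first 3 lines are the entries with the highest signal. The stretches of bun, Dyro and trbl are shown as strong entries with the repeat CAGCAGCAG, which is in capitals. The stretch of corto is shown because this gene held the most entries per kilobase among genes with at least 3. The last lines show entries with TAATCC, or its reverse complement GGATTA, in capitals.
CG31259, chr3R:8524421-8524573, plus strand: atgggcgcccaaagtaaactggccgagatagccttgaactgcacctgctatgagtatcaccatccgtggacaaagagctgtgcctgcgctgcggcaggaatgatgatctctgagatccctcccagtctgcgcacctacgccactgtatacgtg
CG4822, chr2L:117825-118025, minus strand: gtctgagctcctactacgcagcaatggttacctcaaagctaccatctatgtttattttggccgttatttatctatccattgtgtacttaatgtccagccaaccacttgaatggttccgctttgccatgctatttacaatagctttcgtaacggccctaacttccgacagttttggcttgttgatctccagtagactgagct
CG33181, chrX:8491955-8492030, plus strand: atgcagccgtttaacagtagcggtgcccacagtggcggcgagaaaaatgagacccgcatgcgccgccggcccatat
bun, chr2L:12498617-12498769, minus strand: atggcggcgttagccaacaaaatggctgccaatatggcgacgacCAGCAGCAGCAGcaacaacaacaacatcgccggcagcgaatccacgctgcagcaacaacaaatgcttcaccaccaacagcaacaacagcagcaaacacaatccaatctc
Dyro, chr3L:11289157-11289357, minus strand: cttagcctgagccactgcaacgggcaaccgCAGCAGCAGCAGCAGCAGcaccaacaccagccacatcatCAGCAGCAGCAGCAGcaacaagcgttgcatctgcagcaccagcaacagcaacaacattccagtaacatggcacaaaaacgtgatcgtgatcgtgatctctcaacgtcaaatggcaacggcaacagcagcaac
trbl, chr3L:20400991-20401191, minus strand: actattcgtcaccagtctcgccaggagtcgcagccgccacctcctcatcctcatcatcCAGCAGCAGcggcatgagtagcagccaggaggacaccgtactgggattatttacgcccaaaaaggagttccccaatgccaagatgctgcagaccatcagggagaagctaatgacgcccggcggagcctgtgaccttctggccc
corto, chr3R:5085559-5085759, minus strand: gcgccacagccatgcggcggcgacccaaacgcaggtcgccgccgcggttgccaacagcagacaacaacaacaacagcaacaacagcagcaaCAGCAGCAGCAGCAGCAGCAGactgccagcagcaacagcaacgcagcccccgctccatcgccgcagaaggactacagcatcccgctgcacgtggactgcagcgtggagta
CG9427, chr3R:9625669-9625784, minus strand: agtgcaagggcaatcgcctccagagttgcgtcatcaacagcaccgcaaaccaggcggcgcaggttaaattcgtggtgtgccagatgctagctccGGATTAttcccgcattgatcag
LpR1, chr3R:25758860-25759060, minus strand: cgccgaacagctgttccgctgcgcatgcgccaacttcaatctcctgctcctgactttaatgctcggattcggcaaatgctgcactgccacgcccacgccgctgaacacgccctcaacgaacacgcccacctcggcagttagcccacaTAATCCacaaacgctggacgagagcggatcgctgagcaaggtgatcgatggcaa

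The stretches of CG31259, CG33181 and bun each began with ATG at the edge of their coding block. The stretch of trbl also held GGATTA, so it carried both words. Neither word was in the first 3 lines, which belonged to the 3 strongest of all 1103 entries.

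Weak entries were sparse in coding exons. Coding sequence over 500 bp from a TSS made up 18.7 Mb, or 13.6% of the genome, and held 59.1 weak entries per Mb. Introns held 191 per Mb, intergenic sequence 156 per Mb, the zones within 500 bp of a TSS 255 per Mb, and untranslated exons 79.0 per Mb. The share of weak entries in coding exons was thus 0.355 times the share of the genome. Strong entries were sparser still. Only 13 IDR entries had a summit in such coding sequence, so there were 84.8 weak entries for each IDR entry there, against 4.63 in introns, 7.32 between genes and 1.63 near a TSS. Another 6 pooled entries had a coding summit but overlapped an IDR interval, and these were not members.

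The entries lay low in the pooled ranking. Their signal value, a score that the authors' caller gave each entry in its own units, had a median of 35.4, with a lower quartile of 31.3 and an upper quartile of 42.8. It ran from 28.0 to 120. The median rank was 22847, the best was 6319 and the last was 30000, the end of the list. Weak entries in introns had a median signal of 42.9 and a median rank of 18252, those between genes 40.8 and 19355, and those near a TSS 51.2 and 15042. The authors' −log10 q was above 1 for 79 coding entries (7.16%). It was above that level for 25.9% of the weak intron entries, 21.9% of the intergenic ones and 38.3% of those near a TSS.

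The share of coding entries grew towards the end of the list. Among weak entries ranked 6001 to 10000, with signals of 75.9 to 125, 34 (0.942%) were in coding exons. In the next bins of 4000 ranks the numbers were 74 (1.97%), 154 (4.01%), 229 (5.94%) and 300 (7.63%). In the last bin, with signals of 28.0 to 31.7, there were 312 (7.94%, 95% Wilson interval 7.14 to 8.83). Over the same bins the share near a TSS went from 32.1% to 14.0%, while introns held between 43.5% and 46.0% in every bin. The intergenic share went from 20.5% to 29.3%. Coding exons and intergenic sequence thus gained share down the list where the TSS zones lost it.

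**Figure D1:**
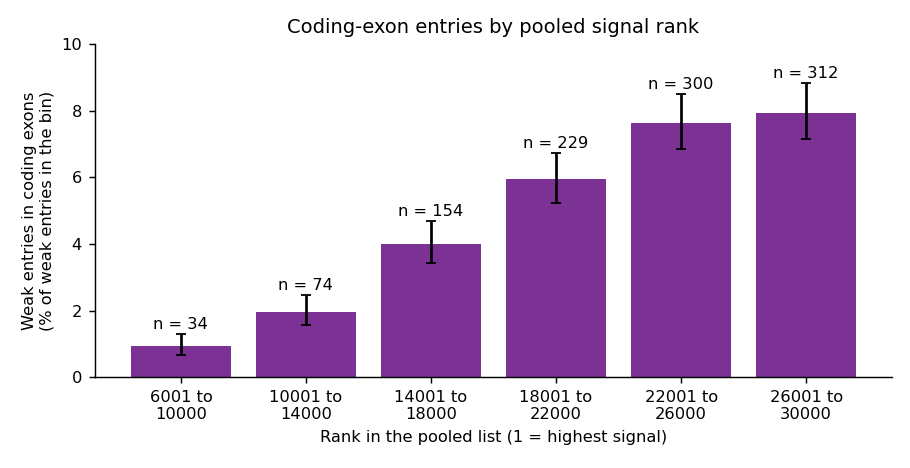
Share of weak pooled entries that lie in coding exons (y axis, percent) in bins of 4000 ranks of the pooled list (x axis). Bars carry 95% Wilson intervals and the number of coding-exon entries; the share goes from 0.942% in the first bin to 7.94% in the last.

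The highest coding entry had its summit in the first exon of CG31259 (FBgn0051259), at chr3R:8524487 and 543 bp from the nearest TSS. Its pooled signal was 120, at rank 6319; its entry in replicate 1 had a signal of 64.6 (rank 5719) and that in replicate 3 a signal of 61.0 (rank 6955). Here an entry is called met by a replicate when that replicate's list has an overlapping entry. This one was met by both and lay 39282 bp from the nearest IDR interval. The second, in CG4822 (FBgn0031220) at chr2L:117925, had a pooled signal of 120 at rank 6353. It had an entry of signal 55.8 in replicate 1 and none in replicate 3, and ND-15 spans the same position. The third, in CG33181, had a pooled signal of 119 at rank 6390, with 60.2 in replicate 1 and 60.8 in replicate 3. Its summit was coding in 1 of 8 transcripts and 1015 bp from an IDR interval.

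The other entries among the 10 strongest lay in genes with known roles. In bun, which encodes a TSC22-domain regulator of growth, the pooled signal was 113, with 34.6 in replicate 1 and 79.8 in replicate 3. The summit was coding in 1 of 10 transcripts and 771 bp from an IDR interval. In jing, a zinc-finger regulator of midline and tracheal cells, the pooled signal was 111, with 46.0 in replicate 1 and 62.5 in replicate 3. In 18w, a Toll-family receptor, it was 108, with 23.7 (rank 17364) in replicate 1 and 81.9 (rank 5058) in replicate 3. The entries of bun and 18w thus ranked far higher in replicate 3 than in replicate 1.

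In Snx27, a sorting nexin of endosomes, the pooled signal was 100, with 63.2 (rank 5868) in replicate 1 and 40.01 (rank 10954) in replicate 3. In ftz-f1, the nuclear receptor that partners Fushi tarazu, it was 99.0, with 31.4 in replicate 1 and 66.1 in replicate 3. In trn, a leucine-rich repeat membrane protein, it was 97.6, with 28.2 in replicate 1 and 53.6 in replicate 3. In su(w[a]), a regulator of splicing, it was 96.8, with 64.3 (rank 5743) in replicate 1 and 36.4 (rank 12169) in replicate 3. Snx27 and su(w[a]) went the other way from ftz-f1 and trn, with the better rank in replicate 1. Of the 1103 entries, 7 met an entry among the first 6054 of replicate 1, and 2 met one among the first 6054 of replicate 3. Of 10283 weak intron entries 279 and 432 did so, and of 6093 intergenic ones 103 and 268. Of 4652 weak entries near a TSS, the numbers were 492 and 134. All these entries lay below rank 6054 in the pooled list, so low numbers here partly follow from the rule.

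Coding entries on either side of the IDR limit are given as values. Weak entries began at pooled rank 6055, so closeness in signal at the limit follows from the rule. The 13 coding IDR entries were led by otp, a homeobox gene, with a signal of 1302 at rank 121, and Pde1c, a phosphodiesterase gene, with 1137 at rank 170. The weakest 3 were CG10962 at 131 (rank 5757), Obsc at 130 (rank 5815) and Lmpt at 129 (rank 5849). The coding entry of CG13086, at 125 and rank 6078, overlapped an IDR interval and was left out. On the distance limit, the nearest members were in ninaG (501 bp from a TSS, signal 31.4), CG11668 (503 bp, 54.0) and Spn43Ad (508 bp, 51.0). Just within it lay entries in Ald1 (500 bp, 39.8), CG31549 (499 bp, 34.2) and CG30269 (495 bp, 33.7). At the end of the list were entries in bab2, Obsc and scrib, all at a signal of 28.0 or 28.1, the last at rank 30000.

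Replicate 3 met more of the coding entries than replicate 1, by overlap with any part of the entry and not only its summit. An overlap of at least 1 bp with the replicate's own relaxed list was found for 489 entries (44.3%, 95% Wilson interval 41.4 to 47.3) in replicate 1 and for 788 (71.4%, 68.7 to 74.0) in replicate 3. Both replicates had an entry at 282 (25.6%), replicate 1 alone at 207 (18.8%), replicate 3 alone at 506 (45.9%), and neither at 108 (9.79%). Weak intron entries were met in 66.9% of cases by replicate 1 and in 72.7% by replicate 3, so the gap between replicates was wider in coding exons. Whether that gap was itself larger was not tested.

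The share met by replicate 1 was lower in coding exons than in each other class, with 44.3% against 66.9% in introns, 80.4% near a TSS and 59.3% between genes. The odds ratios were 0.394, 0.194 and 0.547. For replicate 3 the coding share of 71.4% stood beside 72.7% in introns, 68.8% near a TSS and 75.3% between genes, with odds ratios of 0.942, 1.14 and 0.821. These shares are a description with no test. The pooled list and the IDR set, which chose the members, were made from the same 2 libraries, and overlapping entries can share 1 replicate entry.

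Pooled signal also differed between the classes, and the shares were also taken within ranks. Among entries ranked 6001 to 10000, replicate 1 met 97.1% of the coding and 93.1% of the intron entries, and replicate 3 met 94.1% and 95.5%. The gaps were widest at ranks 22001 to 26000. There replicate 1 met 29.3% of the coding (24.5 to 34.7) against 51.4% of the intron entries (49.1 to 53.8). Replicate 3 met 71.3% (66.0 to 76.2) against 57.8% (55.4 to 60.1). In the bin before, replicate 1 met 48.9% against 61.3%, and replicate 3 met 74.2% against 69.3%. In the bin after, the shares were 30.4% against 43.9%, and 55.4% against 48.9%. The replicate 3 intervals of coding and intron entries overlapped in both of these bins. With only ranks above 18000, a limit set after the data were seen, replicate 1 met 35.1% of the coding and 52.1% of the intron entries, and replicate 3 met 66.2% and 58.6%. The pooled rank is built from both replicates, so at a given rank a class met less by one replicate tends to be met more by the other. The 2 directions are therefore not separate results.

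**Figure D2:**
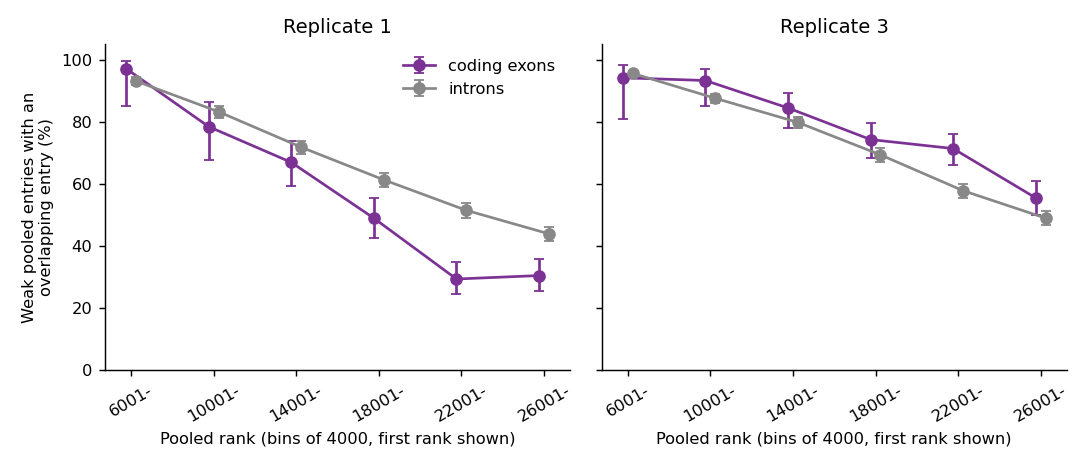
Share of weak pooled entries with an overlapping entry in replicate 1 (left) and replicate 3 (right), in bins of 4000 pooled ranks; points are coding exons (purple) and introns (grey) with 95% Wilson intervals. From rank 18001 on, coding points lie below intron points in replicate 1 and above them in replicate 3.

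The 5 strongest entries met by each replicate alone were picked for that, and are given as values. Replicate 1 alone met CG4822, Sdb (pooled signal 80.9, replicate signal 35.3), the collagen-modifying enzyme gene Plod (69.3, 51.5), CG10916 (65.8, 31.5) and Eip75B, an ecdysone-induced nuclear receptor (65.4, 32.9). Replicate 3 alone met Sema2a, a secreted axon guidance cue (85.8, 66.6), the growth regulator scyl (68.4, 65.4), raskol, a GTPase-activating protein gene (66.9, 51.6), CG33298 (64.8, 52.2) and the chitinase gene Cht6 (63.5, 44.7). Of each pair of values, the first is the pooled and the second the replicate signal.

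Genes that held the entries were many, and most held 1. Of 12417 protein-coding genes with coding sequence over 500 bp from a TSS, 942 (7.59%) held at least 1 entry. Of these 942, 807 held 1, 113 held 2, 18 held 3 and 4 held 4. Genes were split into 5 groups of equal number by the length of such coding sequence. In the shortest group 1.37% held an entry, then 4.23%, 7.29% and 9.50%, and in the longest group 15.5%. Per length the order was not the same, with 75.003 entries per Mb in the shortest group, 78.7, 78.4 and 66.1 in the next, and 48.1 in the longest. The longest genes thus held more entries each and fewer per base.

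Genes with an IDR summit somewhere within them held weak coding entries more often. An IDR summit lay in 323 (34.3%) of the 942 holding genes and in 13.6% of the others. The 2 kinds of gene differed in coding length, with a median of 1.74 kb over 500 bp from a TSS in holding genes and 0.954 kb in the others. In the longest of the 5 groups, 24.6% of genes with an IDR summit and 11.5% of those without held an entry, and in the next longest 17.3% and 7.81%. In the shortest group the shares were 1.34% and 1.37%. Summits lay a median of 6114 bp from an IDR interval, and 82 (7.43%) lay within 1000 bp of one, against 5.67% of coding positions taken every 100 bp. These shares cover unlike ranges. By the rule no member overlapped an IDR interval, and the nearest summit was 365 bp away, while coding positions could lie inside one.

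Of the 4 genes with 4 entries, corto (FBgn0010313) held the most entries per kilobase. It encodes a chromatin protein that binds Polycomb and trithorax group proteins. Its pooled signals were 69.0, 54.0, 42.9 and 40.4, all in 1 coding block of 1650 bp in its first exon. Replicate 3 met all 4 with 2 entries, of signal 63.4 and 43.8, and replicate 1 met 3, at 19.5 and 14.6. The 4 entries of corto were thus 2 neighbouring pairs, each sharing 1 replicate 3 entry, and are not 4 separate sites. This held more widely, since 79 of the 1103 entries overlapped another coding entry.

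In nahoda the pooled signals were 60.7, 44.7, 38.5 and 30.7, and replicate 3 met all 4. The entries at 44.7, 38.5 and 30.7 formed a chain of overlaps. Those at 44.7 and 38.5 shared 1 entry of replicate 3, at 25.8, so the 4 are not separate sites. In Zasp52, a Z-disc protein gene of muscle, the pooled signals were 56.4, 31.3, 29.6 and 28.7. The third of these had no entry in either replicate. In RapGAP1, which encodes an inactivator of the Rap1 GTPase, they were 52.2, 50.04, 41.4 and 37.3. RapGAP1 also held 11 IDR summits, the other 3 genes 1 or none.

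Genes with 3 entries included 18w, with pooled signals of 108, 40.3 and 31.0, all in its single coding exon of 4155 bp. In scrib, an epithelial polarity gene, they were 77.3, 54.0 and 28.0, spread over 3 exons. In Glut4EF they were 76.9, 44.6 and 34.7, the first 2 overlapping. In foxo, the forkhead factor of insulin signalling, they were 51.4, 47.2 and 34.96. CG5122 (49.3, 34.1 and 29.4) and CG32264 (47.8, 36.0 and 29.3) were each met by replicate 3 in all 3 entries and by replicate 1 in none.

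**Figure D3:**
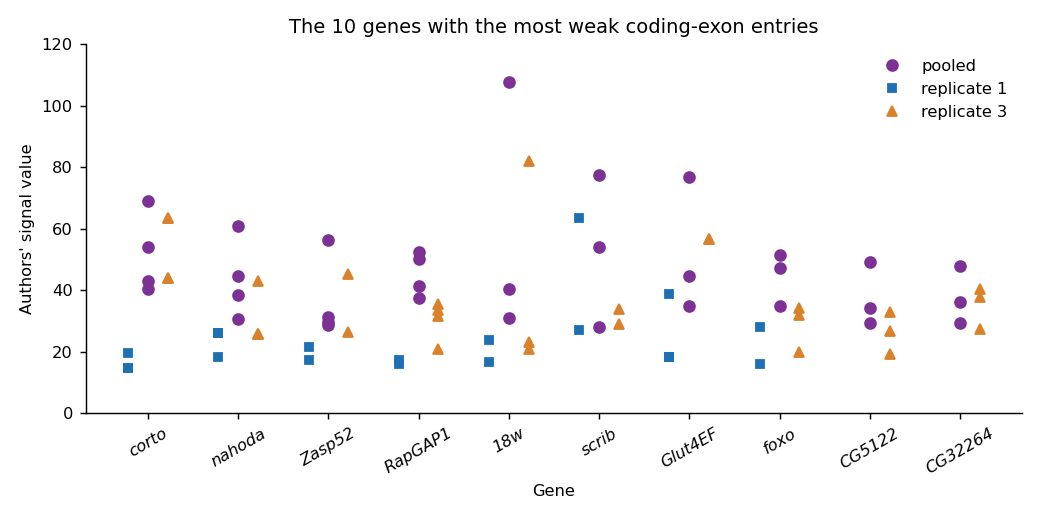
Authors' signal value (y axis) of each coding-exon entry in the 10 genes with the most entries (x axis): pooled entries (circles) and the overlapping entries of replicate 1 (squares) and replicate 3 (triangles); a replicate entry shared by 2 pooled entries is drawn at 1 point. The pooled values go from 28.0 in scrib to 108 in 18w, and replicate 1 has no point in CG5122 or CG32264. Each list has its own scale, so heights are not compared between lists.

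Per kilobase of such coding sequence, the densest genes with at least 3 entries were corto (2.42 per kb), the LIM-homeobox gene Lim1 (1.98), sca, which encodes a secreted regulator of neural precursors (1.75), and foxo (1.59). Next came the serine protease homologue gene scaf (1.53), the POU-domain factor vvl (1.35), CG6191 (1.32), RapGAP1 (1.24), the histidine decarboxylase gene Hdc (1.19) and CG42342 (1.17). Overlapping entries were counted separately here, and corto, Lim1, sca and CG6191 each held overlapping ones, so the order is not one of separate sites. The entries of Lim1 had pooled signals of 42.4, 29.8 and 29.8. Replicate 1 met none of them, and the first 2 shared 1 entry of replicate 3 at 39.5. In vvl the signals were 40.9, 39.7 and 31.1, and both replicates met all 3.

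Gene lists relevant to a Bicoid experiment are described against the 7.59% of all genes and the 59.1 entries per Mb of all eligible coding sequence. Of 23 known Bicoid targets, 7 held 9 entries (30.4%), or 235 per Mb. In kni, a gap gene of the nuclear receptor family, the pooled signals were 39.7 and 31.9, both met by 1 shared entry of replicate 1 (23.1) and none of replicate 3. In pdm2, a POU-domain gene, they were 39.2 and 32.4, met by replicate 3 alone. In cnc, a bZIP gene of head patterning, the signal was 61.6, with 40.2 in replicate 1 and 20.6 in replicate 3. The others were hry and salm, met by replicate 1 alone, and knrl and bowl, met by replicate 3 alone, with signals of 32.3 to 39.6. Of the 9 entries, only that of cnc was met by both replicates. The 2 entries of kni overlapped and were counted separately in the density. The gap genes hb, gt and Kr, the terminal gene tll, the head genes oc, ems and btd, and bcd itself held none. None of the 7 holding genes had an entry above the median of weak intron entries except cnc.

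Of the 8 homeotic genes, 4 held 6 entries, or 473 per Mb over 12.7 kb. In abd-A the signals were 42.5, met by replicate 3 (21.4), and 39.8, met by replicate 1 (20.2). In pb they were 33.7, met by replicate 3, and 31.2, met by replicate 1. In Scr the signal was 44.9 and in Antp 33.1, both met by replicate 3 alone. None of the 6 entries was met by both replicates. Of 15 Notch and EGF receptor pathway genes, 5 held 6 entries (115.4 per Mb), among them mam, the co-activator of Notch (30.1 and 28.4), its ligand gene Ser (39.6) and rho, a protease gene of EGF ligand release (37.6).

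Long structural genes often held an entry. Chromatin and co-regulator genes did so in 12.5%, beside 15.5% in the longest group of all genes. The share of 12.5% rests on 3 genes of 24, too few to set it apart from 15.5%, and no difference was tested. Per base, the lists of structural and chromatin genes all held fewer entries than the 59.1 per Mb of all eligible coding sequence. Of 26 cadherin and extracellular matrix genes, 10 (38.5%) held 13 entries, or 48.9 per Mb, beside 48.1 per Mb in the longest group of all genes. The E-cadherin gene shg had the strongest, at 88.2, with 28.8 in replicate 1 and 64.5 in replicate 3. Of 11 muscle and cytoskeleton giants, 4 (36.4%) held 5 entries, or 20.8 per Mb; the spectraplakin gene shot was highest at 56.6, and sls, a titin-like gene, had 29.1 and 28.1. Of 24 chromatin and co-regulator genes, 3 (12.5%) held 1 entry each, or 19.9 per Mb, namely the SWI/SNF ATPase gene brm (40.5), its partner osa (33.8) and the Polycomb group gene ph-p (31.9). In dpy, the gene with the most eligible coding sequence (68.8 kb), there was 1 entry, at 30.8.

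Small gene families were mixed. Of 60 Cpr cuticle protein genes with eligible sequence 5 held an entry (8.33%, 164 per Mb), led by Cpr62Ba at 56.9 and met by replicate 1 alone. Of 119 odorant and gustatory receptor genes 2 did (1.68%, 23.3 per Mb), Gr93a at 30.4 and Or67a at 28.7. Of 19 mucin genes 1 did, Mur89F at 28.8 (9.04 per Mb). The lists differ in gene length, and no list was tested.

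Among chromosome arms the X had the lowest density of the large arms. It held 143 entries, or 43.0 per Mb of eligible coding sequence (95% Poisson interval 36.2 to 50.7). The autosomal arms held 57.3 (2R, 49.7 to 65.7), 63.7 (2L), 66.5 (3L) and 67.2 (3R, 59.8 to 75.3). The interval of the X overlapped that of 2R alone. In introns the X held 207 weak entries per Mb, within the range of 181 to 210 on the autosomal arms, so the lower density was seen in coding exons and not in introns. The coding GC content of the X was 54.1%, against 51.1% to 52.0% on those arms. Arm 4 held 0 entries in 0.255 Mb (95% Poisson interval 0 to 14.5 per Mb), and it held 12 weak entries in all and 5.22 per Mb in introns. The intervals cover counting error only, and embryos of both sexes were pooled.

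The coding summits were rich in GC. In 201 bp windows the mean GC content was 56.0% ± 6.80 (SD, n = 1103), against 51.8% ± 7.18 at 186615 coding windows taken every 100 bp over the same kind of sequence. Windows 1000 bp to either side had means of 43.5% and 43.6%. Only 28.2% and 30.3% of positions at that distance were coding, so the drop from the summits partly follows from the rule. Around coding positions, GC in 101 bp windows also fell, to 45.1% and 45.2% at 1000 bp. Weak entries had means of 41.3% in introns, 41.3% between genes and 43.4% near a TSS, and the IDR entries 35.9%. Of the 1103 windows, 450 (40.8%) were in the GC class of 57.7% and above, which held 19.5% of the coding windows, a ratio of 2.09. In the lowest class, below 45.8%, there were 88 (7.98%) against 20.2%, a ratio of 0.395. The strongest members did not all share this, with 43.3% in CG4822, 37.3% in su(w[a]) and 67.7% in ftz-f1.

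The peak of GC was narrow. In 101 bp windows it was 57.0% at the summit and 52.6% at coding positions, of which every 10th was used here. At 300 bp on either side the values were 48.8% and 48.2% for the summits and 48.5% for coding positions. By then 60.3% and 59.5% of positions near the summits were coding, against 73.6% and 73.3% around coding positions. Coding blocks with a summit were shorter than those of coding positions, with a median of 637 bp against 822 bp, and 31.1% against 41.9% lay in blocks over 1000 bp. The part of block length in the GC profile was not tested.

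**Figure D4:**
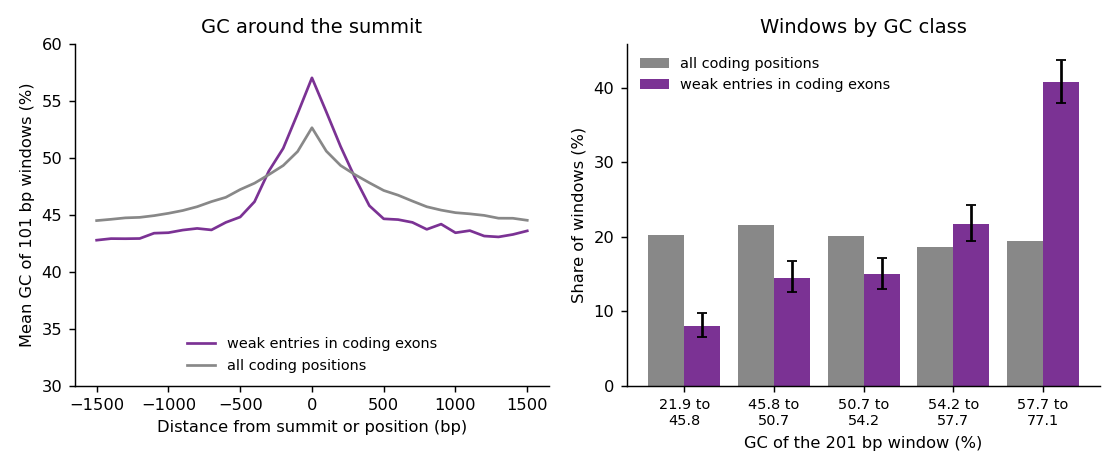
Left, mean GC content of 101 bp windows (y axis, percent) by distance from the summit or coding position (x axis, bp); right, share of 201 bp windows (y axis) in 5 classes of GC content (x axis), with 95% Wilson intervals for the summits. Purple marks the 1103 coding-exon entries and grey all coding positions; the summits exceed coding positions at the centre and in the highest class.

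The Bicoid word had about the same share at the summits as in coding sequence. TAATCC, searched on both strands, was in 71 windows (6.44%, 95% Wilson interval 5.13 to 8.04) against 6.60% of coding windows. It was in 6.29% of weak intron windows and 6.74% of IDR windows, so its share was similar in these sets. CAGGTA, bound by the early activator Zelda, was found in 6.35% against 6.52% of coding windows. TAATTA, the core word of Antennapedia-class homeodomains, was in 1.99% (1.32 to 3.00) against 3.04%, and TATAAA in 4.44% (3.38 to 5.82) against 6.87%. The DREF word TATCGATA was in 2 windows (0.181% against 0.176% of coding windows) and the M1BP word GGTCACAC in 3 (0.272% against 0.345%). GAGAGAG was in 14 (1.27%, 0.758 to 2.12, against 1.06%) and CACACACA in 8 (0.725%, 0.368 to 1.42, against 0.592%). A match is a run of letters and not a bound site, and repeats of these words within a window count once. Mean GC content was 56.0% at the summits, 51.8% in coding windows, 41.3% in weak intron windows and 35.9% in IDR windows. The shares of these words were not split by GC class, so the part of base composition was not tested.

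The CAG repeat was the 1 searched word whose interval at the summits lay wholly above its share in coding windows of 201 bp. CAGCAGCAG was in 121 windows (11.0%, 9.26 to 13.0) against 5.09% of coding windows, a ratio of 2.16. It was in 1.65% of weak intron windows and 0.529% of IDR windows, and in 1.99% and 2.45% of the windows 1000 bp away on either side. Since the repeat is itself GC-rich, the shares were also taken within GC classes, a split chosen after the values were seen. From the lowest to the highest class they were 3.41%, 6.25%, 6.67%, 8.33% and 17.1% at the summits, against 1.06%, 2.61%, 4.31%, 6.42% and 11.5% of coding windows. The lowest class rests on 3 windows. The 95% Wilson intervals of the summits included the coding share in the middle class (3.76 to 11.5) and in the next (5.46 to 12.5), and lay above it in the others.

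Read in the frame of the gene, the repeat was the glutamine codon CAG in 79 of the 121 windows (65.3%) and in 63.2% of the coding windows with the repeat. It was the serine codon AGC in 19.0% and the alanine codon GCA in 11.6%. In Dyro the pooled signal was 91.5, with 53.5 in replicate 1 and 31.1 in replicate 3. In trbl, a pseudokinase gene, it was 88.2, with 37.2 in replicate 1 and 58.1 in replicate 3. Soft-masked sequence, which marks repeats in the reference, covered the summit of 71 entries (6.44%) against 3.68% of coding positions.

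**Figure D5:**
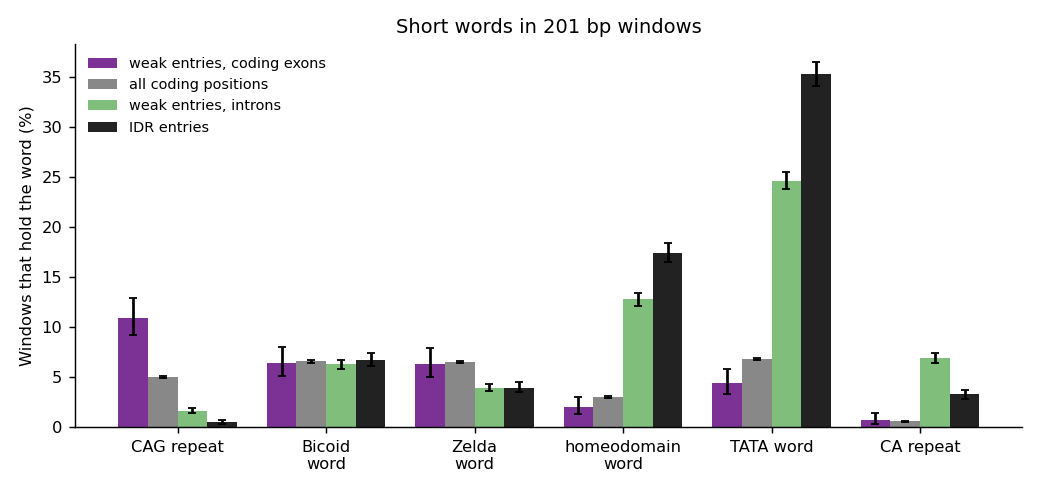
Share of 201 bp windows (y axis, percent) that hold each of 6 searched words on either strand (x axis), with 95% Wilson intervals: coding-exon entries (purple), all coding positions (grey), weak intron entries (green) and IDR entries (black). The CAG repeat is higher in coding-exon entries (11.0%) than in coding positions (5.09%), and the Bicoid word is at 6.29% to 6.74% in all 4 sets.

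All 1103 entries were 424 bp wide with the summit at their centre, so the entry borders carry no information on the width of the signal. A median of 86.3% of an entry was coding, and 109 entries (9.88%) were less than 50% coding. The summit was coding in every transcript that spanned it for 877 entries (79.5%), against 81.5% of coding positions. It was a median of 1642 bp from the nearest TSS, and 306 entries (27.7%) lay between 500 and 1000 bp, against 23.7% of coding positions.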

How the data were processed

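Per the labels, sonicated chromatin of 200 to 800 bp from 2 libraries was sequenced. The authors deposited narrowPeak lists per replicate and pooled, plus an IDR set; the lists are relaxed ones derived from alignments and a control, per the deposited file descriptions. The labels and file descriptions name no peak caller or aligner. Column 7 is the authors' signal value, a score on the caller's own scale, column 9 the authors' deposited −log10 q value, and column 10 the deposited summit offset. No list gives read counts, and library depth is therefore unknown. Signal was ranked and summarised within a list only. Where signals of different lists stand side by side, each is on its own list's scale, and their levels were not compared.

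Coordinates are dm6, counted from 1. The genome (RefSeq Release 6) and annotation (Ensembl release 115, BDGP 6.54) share that assembly; dm3 lists were not used. Summits were classed by the annotation without transposons, nearest TSS first, then coding exon. Coding positions for comparison were taken every 100 bp. Overlap with a replicate's list meant at least 1 bp. Replicate shares were also run through two-sided Fisher's exact tests, adjusted by Benjamini-Hochberg over 6 tests. Their p-values are not reported, because the rule drew on the same libraries and entries are not independent. Intervals are 95% Wilson or exact Poisson intervals and cover counting error only. Python 3.11.15, numpy 2.4.6, pandas 2.3.3, scipy 1.17.1, statsmodels 0.14.6 and matplotlib 3.10.9 were used; the scripts were tested on simulated data.

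Named genes were those of the 10 strongest entries, the 10 with most entries, the 10 with most per kb among genes with at least 3, up to 3 per list, bcd, those nearest each threshold, and the 5 strongest entries met by 1 replicate alone. Dyro, trbl, CG9427, LpR1, dpy and the listed target genes without an entry were added after their values were seen. The ribosomal protein list is not reported here. The members and lists were chosen with earlier results of these data known. Alternatives covered the TSS distance, transcripts, overlaps, window size and each replicate alone.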

Additional observations from a re-analysis of the deposited data

How the results depend on the processing

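Across the alternatives, 93 of 117 recomputed values stayed within the counting interval, side of the computed test or 1.5-fold range of the value reported. Some of these changed direction, since direction alone was not counted. The replicate 3 odds ratio against introns went from 0.942 to 1.01 with the strongest entry of each gene. The CACACACA ratio went from 1.23 to 0.653 without replicate 3. Others could not change: distinct intervals were the same 1103 entries, and the strongest entry of each gene kept all 942 genes. The 93 are therefore no measure of robustness. A TSS distance of 250 or 1000 bp moved the share of weak entries in coding exons from 4.81% to 5.74% or 3.48%, coding in every spanning transcript gave 3.83%, and the strongest entry of each gene 4.11%, with a median signal of 36.1. With the rule applied to the replicate lists, the share was 7.90% without replicate 1 and 4.53% without replicate 3. The number of entries was 1836 and 1035, of holding genes 1486 and 886, and the median signal, on each list's own scale, 24.0 and 18.5. The share of coding entries met by replicate 1 ran from 15.1% (without replicate 1) to 45.2% and stayed below introns throughout. That met by replicate 3 was 25.1% without replicate 3, below the 46.0% of introns, and with ranks above 18000, chosen after the data were seen, it reversed to 66.2% against 58.6%. The share of a replicate's own entries in itself is 100% by construction and was not computed. The CAG repeat ratio was 1.75 without replicate 1 and 1.52 without replicate 3. In windows of 50 bp on either side the ratio of GAGAGAG was 0.570 (3 windows) and that of CACACACA 0.357 (1 window). With 200 bp they were 1.31 and 1.51 (interval 1.02 to 2.21 for the latter). GC at summits exceeded coding sequence by 3.21 points without replicate 1, 3.43 without replicate 3 and 3.30 with 200 bp on either side. Flanks did not have to be coding, so their lower GC partly follows from the rule. GC at summits exceeded the flanks by 13.6 points with 50 bp, 10.6 with 200 bp and 11.1 with flanks at 500 bp. The excess was 10.6 points without replicate 1 and 11.9 without replicate 3. The causes of these shifts were not tested. No paired analysis was possible because there is 1 group. With depth unknown, an entry that a replicate lacks may be absent or below what its list reached.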
